A study of Homo sapiens with 12 samples.

Results

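Gemcitabine (GEM) is hydrophilic and crosses membranes poorly without a carrier. The 7 genes described here encode nucleoside transporters, some of which can carry a nucleoside analog into a cell. They were selected by symbol as the SLC29 genes SLC29A1, SLC29A2, SLC29A3 and SLC29A4 and the SLC28 genes SLC28A1, SLC28A2 and SLC28A3, each of which had 1 row among the 58302 genes of the expression table. Their mRNA was measured by RNA sequencing in BxPC-3 and CFPAC-1, both epithelial human pancreatic cancer lines labelled sensitive, and in the GEM-resistant lines derived from them, named BxPC-3-GR and CFPAC-1-GR, with 3 libraries per line and 12 in all. Each resistant line had survived continued exposure to rising GEM concentrations, and the last concentration was higher for BxPC-3-GR than for CFPAC-1-GR. There was 1 resistant line per parent, so effects of GEM and of the selected population cannot be told apart. Whether GEM was in the medium when RNA was taken, and whether the replicates came from separate cultures, is not given in the sources used here, so p-values measure the spread between these libraries, which may be technical.

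The SLC29 family encodes equilibrative nucleoside transporters, which let nucleosides move down their concentration gradient in either direction. SLC29A1 (ENT1) is the ubiquitous carrier at the cell surface and is regarded as the main route of GEM into pancreatic cancer cells. SLC29A2 (ENT2) carries nucleosides and, unlike SLC29A1, nucleobases well. SLC29A3 (ENT3) works in lysosomes and mitochondria, and SLC29A4 (ENT4, also called the plasma membrane monoamine transporter) carries monoamines and adenosine. The SLC28 family encodes concentrative transporters, which use the sodium gradient to bring nucleosides in against their own gradient. SLC28A1 (CNT1) prefers pyrimidine nucleosides, SLC28A2 (CNT2) prefers purine nucleosides, and SLC28A3 (CNT3) takes both, so that GEM, a cytidine analog, is a substrate of SLC28A1 and SLC28A3.

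The values were FPKM, fragments per length of the gene and per number mapped in the library, so levels of different genes can be set side by side. The depth implied by the steps of low values was 12600000 to 25200000 fragments per library after rounding. Ductal epithelial identity was checked with 8 markers, which were above 0 in all 12 libraries and summed to between 843 and 2969 FPKM. The fibroblast and stellate markers COL1A1 and ACTA2 and the endothelial PECAM1 and CDH5 were above 0 in all 12 too. The ductal marker MUC1 averaged 0.353 FPKM in BxPC-3, under COL1A1 (0.727) and ACTA2 (0.692). Summed acinar, fibroblast and stellate, and endothelial markers reached at most 0.901, 5.91 and 0.911 FPKM in any library. The islet markers INS and GCG and the leukocyte marker PTPRC were at 0 in all 12, whereas CD68, a macrophage marker, lay between 0.909 and 36.9 FPKM. The summed ductal markers were at 2700.2 to 2969 FPKM in CFPAC-1 and 1199.6 to 1398 FPKM in CFPAC-1-GR, a sum carried by the keratins, while EPCAM averaged 86.2 and 118 FPKM and CDH1 21.6 and 37.5 FPKM in the same order. CD68 averaged 31.97 and 11.3 FPKM there, and the part of these markers in the results was not tested. Since RNA was pooled over cells, fewer cells with a transcript and less of it per cell cannot be told apart.

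All 7 genes are protein-coding and lie at separate loci in GRCh38, as annotated by GENCODE 29. SLC29A1 (ENSG00000112759) spans 44219505 to 44234151 on the plus strand of chromosome 6, and SLC29A2 (ENSG00000174669) spans 66362521 to 66372214 on the minus strand of chromosome 11. SLC29A3 (ENSG00000198246) spans 71319258 to 71363385 on the plus strand of chromosome 10, and SLC29A4 (ENSG00000164638) spans 5274369 to 5306870 on the plus strand of chromosome 7. The concentrative genes SLC28A1 (ENSG00000156222, 84884654 to 84945796) and SLC28A2 (ENSG00000137860, 45252230 to 45277845) are both on the plus strand of chromosome 15. SLC28A3 (ENSG00000197506) spans 84275457 to 84340683 on the minus strand of chromosome 9. The 4 SLC29 transcripts and SLC28A1 were GC-rich, at 56.9% to 61.1%, and SLC28A2 and SLC28A3 were at 43.7% and 42.7%, which bears on the CFPAC-1 comparison below.

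Start-site windows were held by RefSeq for 4 of the 7 genes (GRCh38.p14, 5 windows), each from 250 bases before to 50 bases after an annotated start. The bases 5′ of the first GENCODE exon in the window are shown for SLC29A1, the most abundant member in the parental lines and lower in both resistant lines, which has 2 such starts, and for SLC28A1, which was nearly silent. The capitals mark the motifs searched on both strands, GGGCGG (the GC box), TATAAA (the TATA box) and CACGTG (the E-box). The stretches are chr6:44219365-44219504, chr6:44223345-44223503 and chr15:84884412-84884653, all on the plus strand. The first and the third lie upstream of their genes, and the second lies inside SLC29A1, in an intron of its longer transcripts.
SLC29A1 first start: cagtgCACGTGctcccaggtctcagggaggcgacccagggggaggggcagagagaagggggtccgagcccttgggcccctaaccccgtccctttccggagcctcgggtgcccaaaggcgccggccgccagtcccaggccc
SLC29A1 second start: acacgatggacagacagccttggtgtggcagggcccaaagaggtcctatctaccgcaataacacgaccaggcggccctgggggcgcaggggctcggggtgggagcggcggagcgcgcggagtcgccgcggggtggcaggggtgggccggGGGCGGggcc
SLC28A1 start: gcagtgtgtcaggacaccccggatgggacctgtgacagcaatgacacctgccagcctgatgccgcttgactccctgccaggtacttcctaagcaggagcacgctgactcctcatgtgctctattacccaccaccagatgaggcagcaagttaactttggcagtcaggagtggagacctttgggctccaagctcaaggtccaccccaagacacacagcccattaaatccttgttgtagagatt

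Both SLC29A1 windows were rich in CpG dinucleotides, with 27 and 34 in the full 300 bases against a median of 14 over 35116 windows, and each held 3 GC boxes. The printed bases of the first hold 1 E-box and those of the second 1 GC box. The SLC28A1 window had 4 CpG dinucleotides and none of the 3 motifs. Of the other windows, that of SLC29A3 had 32 CpG dinucleotides, 2 GC boxes and 1 TATA box, and that of SLC29A4 had 18 CpG dinucleotides and 3 GC boxes. Among all windows of this length, 45.0% held a GC box, 11.5% a TATA box and 7.3% an E-box.

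SLC29A1 was the most abundant nucleoside transporter in BxPC-3, at 12.1, 12.1 and 10.7 FPKM. SLC29A2 followed at 4.28, 5.52 and 4.56 FPKM, and SLC29A3 at 2.92, 2.60 and 3.44 FPKM. The 3 ranges did not overlap, so the order SLC29A1, SLC29A2, SLC29A3 held in each BxPC-3 library. SLC28A3 was far lower, at 0.232, 0.234 and 0.146 FPKM, which corresponds to 13 to 24 fragments per library, and SLC29A4, SLC28A1 and SLC28A2 were listed at 0 in all 3.

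CFPAC-1 had more of the 3 main equilibrative transporters. SLC29A1 was at 37.4, 35.5 and 34.7 FPKM, SLC29A2 at 15.3, 17.3 and 16.0 FPKM, and SLC29A3 at 6.18, 4.97 and 4.93 FPKM. The order was that of BxPC-3 and the ranges again did not overlap. SLC29A4 was present here, at 1.41, 1.90 and 1.79 FPKM, while SLC28A3 was at 0.0395, 0.0152 and 0 FPKM, or 5 fragments over the 3 libraries. SLC28A1 gave 10 fragments in all (0.0428, 0.110 and 0.0432 FPKM) and SLC28A2 none. At these depths 3 fragments of SLC28A2, the most that a listed 0 allows, correspond to at most 0.0384 FPKM in any CFPAC-1 library, a limit for counting error only.

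**Figure D1:**
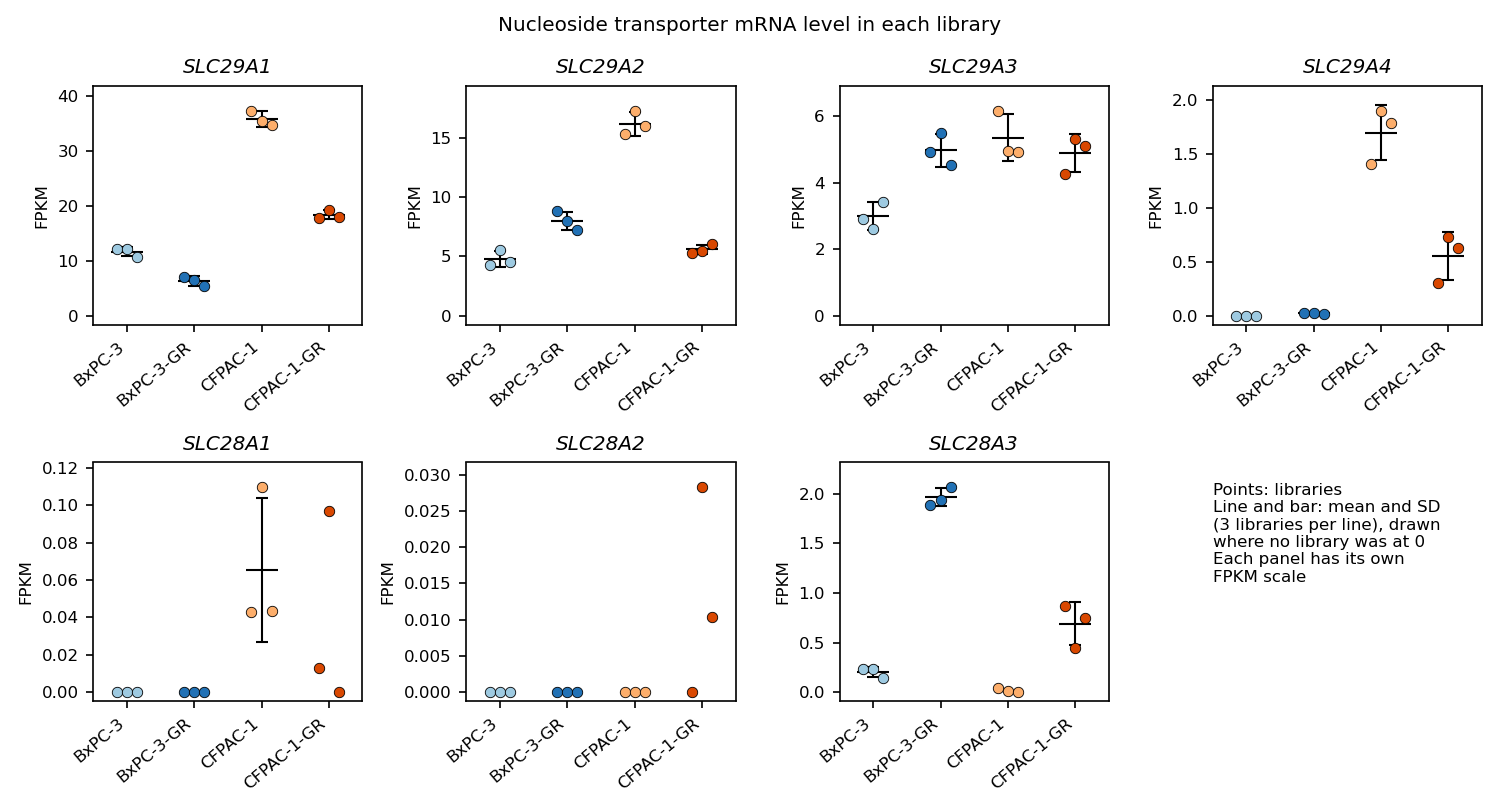
FPKM of each nucleoside transporter (y axis, 1 panel per gene with its own scale) in the 4 lines (x axis). Points are the 3 libraries of a line, with the mean and SD where no library was at 0. SLC29A1 was lower in both resistant lines than in their parents, SLC29A2 was higher in BxPC-3-GR and lower in CFPAC-1-GR, and SLC28A3 was higher in both resistant lines.

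The parental lines, whose libraries also serve as controls of the resistant lines, were compared by limma on log2(FPKM + 1), testing genes that averaged at least 1 FPKM over the libraries compared. A gene passed at a Benjamini-Hochberg adjusted p below 0.05 over all genes tested, and it was significantly differentially expressed (SDE) if its absolute log2FC was also above 1. SLC29A1 was 3.08-fold higher in CFPAC-1 (log2FC 1.54, SE 0.0678, adjusted p = 1.6e-06) and SLC29A2 3.39-fold higher (log2FC 1.58, SE 0.0948, adjusted p = 6.6e-06). SLC29A3 was 1.79-fold higher (log2FC 0.67, SE 0.11, adjusted p = 0.0011), and the other members were under the minimum mean. Without any 1 BxPC-3 library SLC29A4, listed at 0 in BxPC-3, reached the minimum through CFPAC-1 alone, so no call is drawn from it. All 3 members tested passed and 2 were SDE, where 84.2% of 11842 genes passed and 44.5% were SDE. After a correction for GC content and gene length the differences of SLC29A1 and SLC29A2 were 0.86 and 0.54 and that of SLC29A3 was -0.030 (adjusted p = 0.83), and the part of GC content in them was not tested.

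In BxPC-3-GR, the mRNA of SLC29A1 fell while that of SLC29A2, SLC29A3 and SLC28A3 rose. SLC29A1 was at 7.14, 6.58 and 5.42 FPKM, below every BxPC-3 library, with a mean of 6.38 ± 0.878 FPKM against 11.6 ± 0.801 FPKM (SD, n = 3 each). This is 0.548 of the parental level (log2FC -0.78, SE 0.102, limma adjusted p = 0.001). The value was near the edge of its GC class, in which 8.98% of 1169 genes had a lower log2FC.

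SLC29A2 moved the other way. It was at 8.80, 7.97 and 7.21 FPKM, above every BxPC-3 library, and its mean of 7.995 ± 0.796 FPKM was 1.67-fold the parental mean of 4.79 ± 0.653 FPKM (SD, n = 3 each). The log2FC was 0.64 (SE 0.104, limma adjusted p = 0.0026). SLC29A3, the intracellular transporter, was at 4.92, 5.52 and 4.52 FPKM, also 1.67-fold its parental mean and without overlap (log2FC 0.59, SE 0.0993, limma adjusted p = 0.003).

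SLC28A3 was the concentrative transporter that BxPC-3-GR expressed. Its level was 1.89, 1.94 and 2.07 FPKM, or 735 fragments over 3 libraries against 58 in BxPC-3, a ratio of 9.57 per mapped fragment (95% interval 7.32 to 12.7, counting error only). The log2FC of 1.30 (SE 0.0555, limma adjusted p = 1.6e-05) was past the SDE limit, and on log2(FPKM + 0.1) it was 2.78 (limma adjusted p = 4.3e-05), since the pseudocount of 1 compresses low values. SLC28A3 reached the minimum mean of 1 FPKM only through BxPC-3-GR, so its passing the test was tied to its being tested, and without any 1 of the BxPC-3-GR libraries its mean fell under that minimum.

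SLC29A4 gave 2 or 3 fragments in each BxPC-3-GR library (0.0284, 0.0221 and 0.0192 FPKM), at or under the floor of 3 fragments, and SLC28A1 and SLC28A2 stayed listed at 0. Of the 7 members 4 were tested and 3 were not. The 4 tested had a median log2FC of 0.61, against -0.05 over all 11710 genes. All 4 passed, 3 higher and 1 lower, and 1 was SDE. Of all genes 57.7% passed, 26.2% higher and 31.5% lower, and 7.76% were SDE. None of the 4 overlapped between the groups, which was so for 66.1% of genes. SLC28A3, the SDE member, was tested only through BxPC-3-GR and is part of the median and of these counts. Correction for GC content and length left these differences at -0.78 for SLC29A1, 0.65 for SLC29A2, 0.56 for SLC29A3 and 1.31 for SLC28A3.

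**Figure D2:**
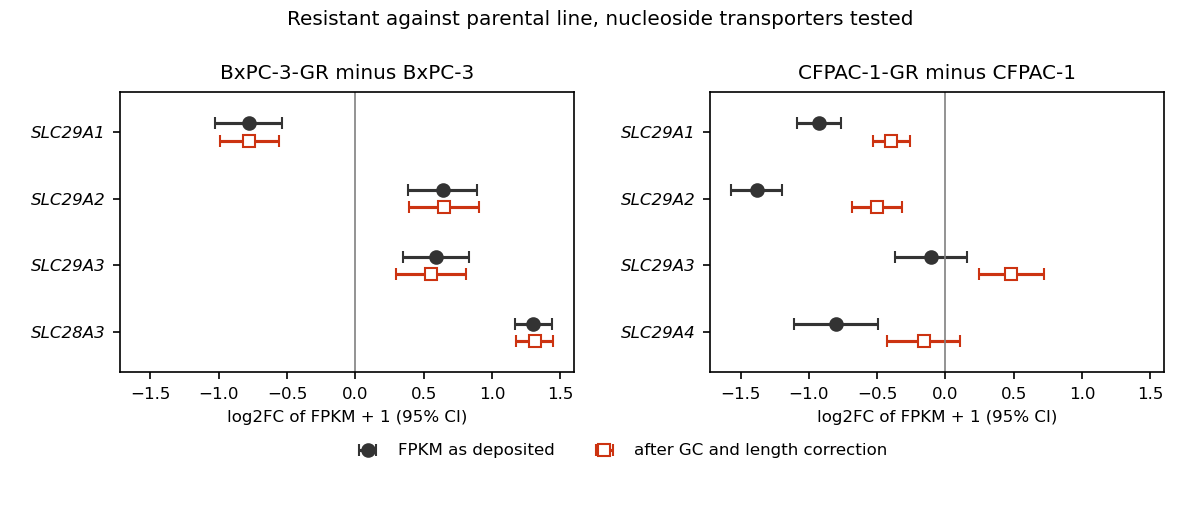
log2FC of the tested nucleoside transporters (x axis, on FPKM + 1, with the 95% confidence interval of limma) for the resistant lines against their parents, as deposited (filled circles) and after the GC and length correction (open squares). In BxPC-3-GR both estimates nearly coincide, and in CFPAC-1-GR the correction moved SLC29A1 from -0.93 to -0.40, SLC29A2 from -1.38 to -0.50, SLC29A3 from -0.11 to 0.48 and SLC29A4 from -0.80 to -0.16.

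In CFPAC-1-GR, SLC29A1, SLC29A2 and SLC29A4 were lower than in CFPAC-1, SLC29A3 did not pass the test, and SLC28A3 was higher from a level near 0. SLC29A1 was at 17.8, 19.3 and 18.0 FPKM, with a mean of 18.4 ± 0.845 FPKM against 35.8 ± 1.38 FPKM (SD, n = 3 each). That is 0.513 of the parental level, without overlap (log2FC -0.93, SE 0.0683, limma adjusted p = 2.1e-05). All 3 libraries of resistant CFPAC-1-GR were above the highest library of sensitive BxPC-3, at 12.1 FPKM, a difference that was not tested.

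SLC29A2 fell as well. It was at 5.26, 5.48 and 6.05 FPKM, and its mean of 5.60 ± 0.406 FPKM was 2.90-fold below the parental 16.2 ± 1.01 FPKM (SD, n = 3 each). The log2FC was -1.38 (SE 0.0791, limma adjusted p = 9e-06), which made it the 1 SDE member. SLC29A4 fell from the values given above to 0.306, 0.725 and 0.630 FPKM, 0.326 of the parental mean (log2FC -0.80, SE 0.128, limma adjusted p = 0.00091). As a ratio of means this was a larger fall than that of SLC29A2, and on log2(FPKM + 0.1) the log2FC was -1.51 for SLC29A4 and -1.52 for SLC29A2. SLC29A4 reached the minimum mean only through CFPAC-1, the group in which it was high, and without CFPAC-1 replicate 2 or replicate 3 it was not tested.

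SLC29A3 was at 4.26, 5.33 and 5.10 FPKM, and its range overlapped that of CFPAC-1. The log2FC was -0.11 with a 95% interval of -0.37 to 0.16 (limma adjusted p = 0.39), and it passed as lower under median-of-ratios scaling (-0.36, limma adjusted p = 0.026) and upper-quartile scaling (-0.47, limma adjusted p = 0.0078). Of the 7 members 4 were tested and 3 were not, and the 4 had a median log2FC of -0.86, against 0.13 over all 12051 genes. The 3 that passed were all lower, and 1 was SDE. Of all genes 79.6% passed, 44.6% higher and 34.9% lower, and 32.2% were SDE. Those 3 did not overlap between the groups, which held for 82.1% of genes. SLC29A4, tested only through CFPAC-1, is 1 of these 3 and part of the median.

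In this line the log2FC of a gene followed its GC content, with a Spearman rho of -0.777 across 12030 genes, against 0.0388 across 11685 genes in the BxPC-3 lines (a description, since genes are not independent replicates). The tested transporters sit at the GC-rich end of that trend. With genes split by GC content into 10 equal classes, the class of SLC29A1 had a median log2FC of -0.56, and 24.4% of these 1203 genes were lower still. The median was -0.74 in the class that holds SLC29A2, SLC29A3 and SLC29A4, where 11.9% of genes lay below SLC29A2, 44.9% below SLC29A4 and 87.7% below SLC29A3.

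After the correction SLC29A1 and SLC29A2 remained lower, by smaller amounts (log2FC -0.40, SE 0.0558, limma adjusted p = 0.0012, and -0.50, SE 0.0755, limma adjusted p = 0.0016). SLC29A4 no longer passed (log2FC -0.16, 95% interval -0.43 to 0.10, limma adjusted p = 0.25), and SLC29A3 passed as higher (log2FC 0.48, SE 0.0987, limma adjusted p = 0.0057). Both calls depended on the low-value settings: with the correction and a minimum mean of 0.1 FPKM, SLC29A4 passed as lower (-0.39, limma adjusted p = 0.024, and -0.96, limma adjusted p = 0.032 with a pseudocount of 0.1 too) and SLC29A3 did not pass (0.27, limma adjusted p = 0.061, and 0.37, limma adjusted p = 0.062). With the pseudocount and minimum of 1, 3 members passed and none was SDE, where 60.2% of genes passed and 8.66% were SDE. Whether the trend arose in the cells or in the libraries was not tested.

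**Figure D3:**
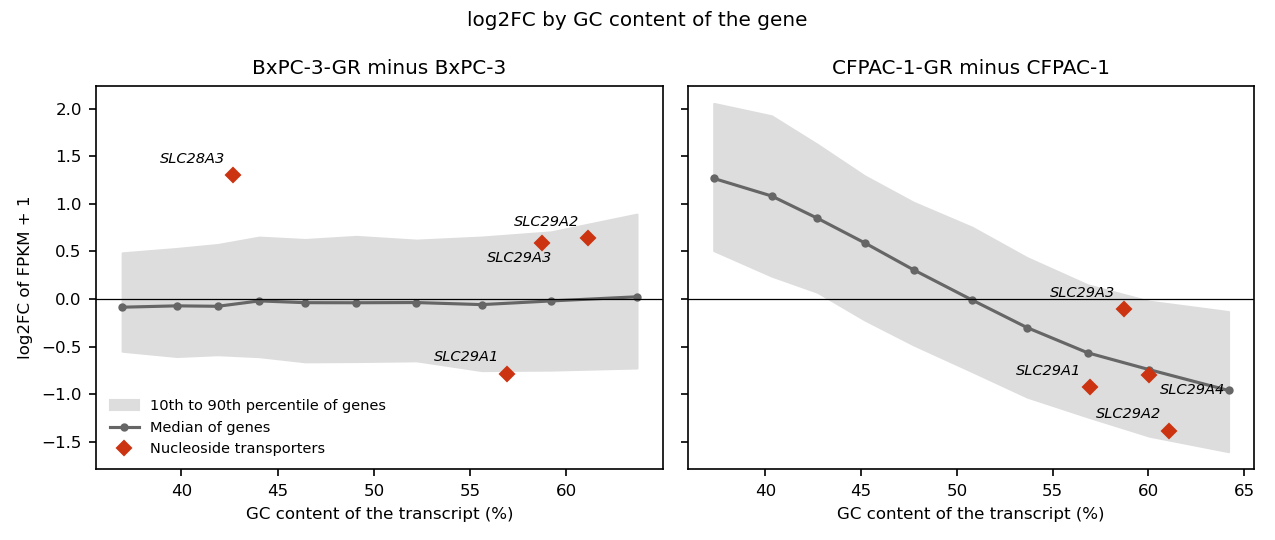
log2FC on FPKM + 1 (y axis) by GC content of the transcript (x axis, percent) in the 2 comparisons. The line is the median of 10 equal classes of the tested genes, the band their 10th to 90th percentile, and diamonds are the tested transporters. The median is flat in the BxPC-3 lines and falls from 1.27 to -0.96 in the CFPAC-1 lines.

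SLC28A3 was under the minimum mean in the CFPAC-1 lines but its libraries were well separated. It was at 0.869, 0.448 and 0.752 FPKM in CFPAC-1-GR, or 200 fragments, against the 5 fragments of CFPAC-1. Per mapped fragment the ratio was 32.95 (95% interval 13.9 to 103, counting error only). With a minimum mean of 0.1 FPKM the log2FC was 0.72 (limma adjusted p = 0.00093), where 63.1% of 21003 genes passed. On log2(FPKM + 0.1) with the same minimum the log2FC was 2.71 (limma adjusted p = 0.00033). SLC28A3 reached that minimum only through CFPAC-1-GR, so its passing the test was tied to its being tested. SLC28A3 has a low GC content, at which most genes were higher in CFPAC-1-GR. With the GC and length correction added it was 0.08 on log2(FPKM + 1) (limma adjusted p = 0.5) and 1.66 on log2(FPKM + 0.1) (limma adjusted p = 0.0038), both with the lower minimum. SLC28A1 (0.0127, 0.0971 and 0 FPKM, 7 fragments) and SLC28A2 (0, 0.0283 and 0.0104 FPKM, 4 fragments) remained near the limit of detection.

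Both lines were then set against each other by the interaction of line and resistance over all 12 libraries. The response of SLC29A2 was opposite in direction, with a difference of -2.02 in log2FC (CFPAC-1 lines minus BxPC-3 lines, SE 0.133, limma adjusted p = 1.6e-07). The difference was -1.12 after the GC and length correction (limma adjusted p = 3.4e-05). For SLC29A3 it was -0.70 (SE 0.155, limma adjusted p = 0.0017) and -0.05 after the correction (limma adjusted p = 0.78). The fall of SLC29A1 did not differ detectably between the lines (difference -0.15, 95% interval -0.42 to 0.13, limma adjusted p = 0.3), and after the correction it was smaller in the CFPAC-1 lines (difference 0.40, 95% interval 0.16 to 0.63, limma adjusted p = 0.007), a call that was lost with a minimum mean of 0.1 FPKM (0.22, limma adjusted p = 0.12) and held with a pseudocount of 0.1 too (0.41, limma adjusted p = 0.032). Under median-of-ratios and upper-quartile scaling the fall was instead larger in the CFPAC-1 lines (-0.49, limma adjusted p = 0.0047, and -0.61, limma adjusted p = 0.0016). Without BxPC-3-GR replicate 3 the difference for SLC29A1 was -0.24 and passed (limma adjusted p = 0.047). SLC29A4 and the SLC28 genes were under the minimum mean. Of the 3 tested, 2 passed and 1 was SDE, where 76.6% of 12210 genes passed and 38.0% were SDE.

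The make-up of the family changed in BxPC-3-GR more than its sum. The 7 members summed to 19.6 ± 0.804 FPKM in BxPC-3 and 21.3 ± 1.86 FPKM in BxPC-3-GR, with overlapping ranges (18.9 to 20.5 and 19.2 to 22.8 FPKM). SLC29A1 made up 59.3% ± 2.57 of that sum in BxPC-3 and 29.8% ± 1.60 in BxPC-3-GR, SLC29A2 24.3% ± 2.55 and 37.4% ± 1.24, and SLC28A3 1.03% ± 0.227 and 9.29% ± 1.30 (SD, n = 3 each). SLC29A1 was no longer the leading transporter of BxPC-3-GR: it lay below SLC29A2 in each library, and its range touched that of SLC29A3.

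In the CFPAC-1 lines the sum itself was lower, at 30.2 ± 1.54 FPKM in CFPAC-1-GR against 59.2 ± 1.55 FPKM. SLC29A1 lay in a GC class with a median log2FC of -0.56, and SLC29A2 and SLC29A3 in a class with -0.74. The part of GC content in the lower sum and in the shares was not tested. The share of SLC29A1 stayed at 61.0% ± 1.76 against 60.5% ± 1.29, and those of SLC29A2 and SLC29A3 drew together, at 18.6% ± 1.18 and 16.2% ± 1.08 in CFPAC-1-GR against 27.4% ± 1.82 and 9.04% ± 1.04 in CFPAC-1 (SD, n = 3 each). In CFPAC-1-GR the FPKM ranges of SLC29A2 and SLC29A3 overlapped, as did those of SLC28A3 and SLC29A4.

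**Figure D4:**
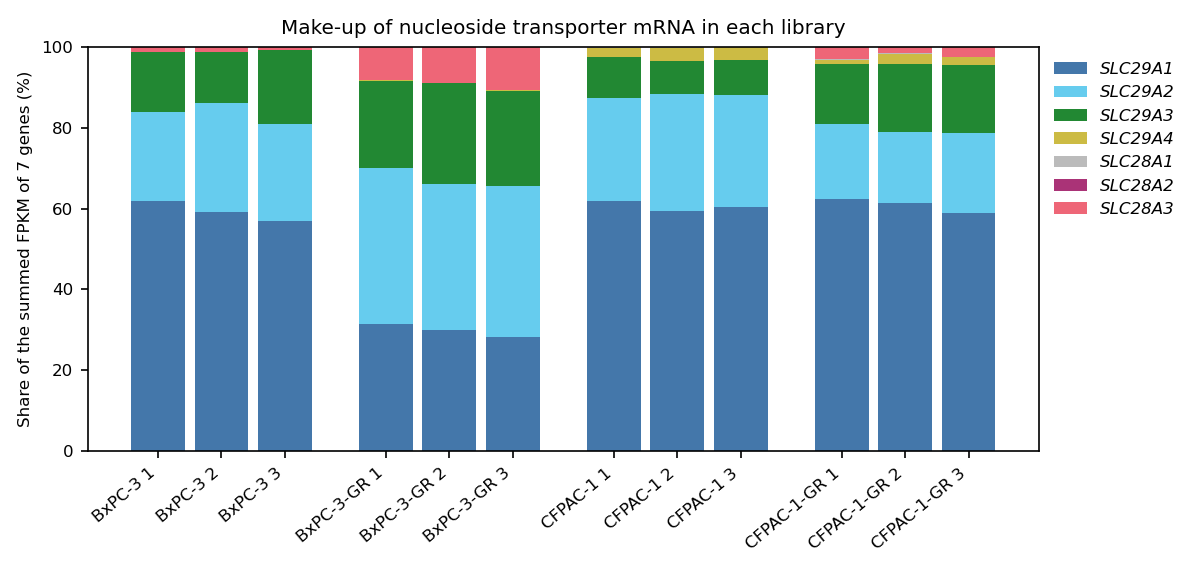
Share of each transporter in the summed FPKM of the 7 genes (y axis, percent) in each of the 12 libraries (x axis, named by line and replicate). SLC29A1 takes 56.8% to 62.4% of the sum in the BxPC-3, CFPAC-1 and CFPAC-1-GR libraries and 28.1% to 31.3% in those of BxPC-3-GR.

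The ratio of SLC29A1 to SLC29A2 within a library is free of the scaling of that library. It was 2.83, 2.19 and 2.35 in BxPC-3 and 0.811, 0.825 and 0.751 in BxPC-3-GR, so that each BxPC-3-GR library held more SLC29A2 than SLC29A1. The log2 ratio was lower by 1.62 in BxPC-3-GR, with an exact 2-sided permutation p = 0.1, the smallest that 3 libraries against 3 allow. It was 2.44, 2.05 and 2.17 in CFPAC-1 and 3.37, 3.53 and 2.98 in CFPAC-1-GR, again without overlap but in the opposite direction (difference in log2 ratio 0.57, exact 2-sided permutation p = 0.1). The median log2FC of the GC classes of SLC29A1 and SLC29A2 was -0.56 and -0.74 in the CFPAC-1 lines, and the part of GC content in this difference was not tested.

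**Figure D5:**
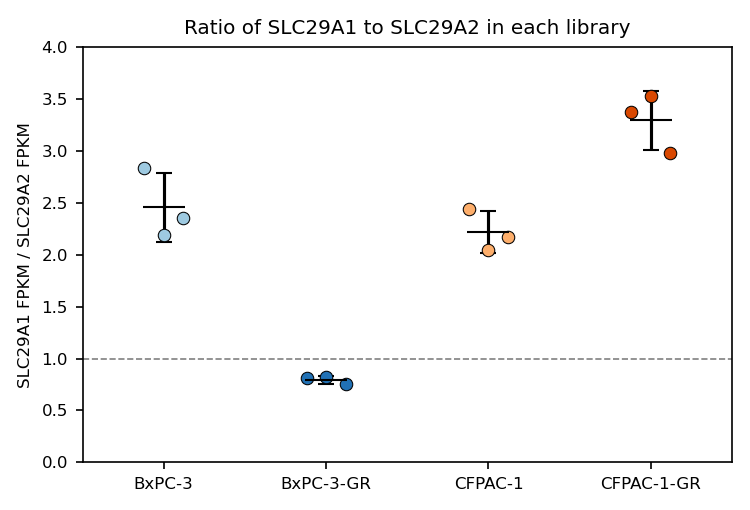
Ratio of SLC29A1 to SLC29A2 FPKM (y axis) in the 4 lines (x axis). Points are libraries, horizontal marks and bars the mean and SD of 3, and the dashed line marks equal levels. The BxPC-3-GR libraries lie between 0.751 and 0.825, below the line, and the other 9 between 2.05 and 3.53.

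Some members share their locus with other transcripts, and the sources used here do not say whether counting used strand. SLC29A4 overlaps TNRC18 on the opposite strand, which was at 5.38 to 15.5 FPKM, and reads from a shared stretch cannot be told apart without strand. SLC29A4 was listed at 0 in the 3 BxPC-3 libraries, where TNRC18 averaged 13.8 FPKM. The part of TNRC18 reads in the SLC29A4 values was not tested. The antisense transcript AP001107.9 at SLC29A2 averaged 1.19 FPKM in CFPAC-1 and 0.592 FPKM in CFPAC-1-GR, and AL356134.1 at SLC28A3 was listed at 0 in all 12 libraries.

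Neighbours and related genes are read against the shares given above over all genes. In BxPC-3-GR 26.2% passed as higher, 31.5% as lower and 7.76% were SDE, and in CFPAC-1-GR 44.6%, 34.9% and 32.2%. After the GC and length correction the shares in CFPAC-1-GR were 29.6% higher, 30.6% lower and 8.66% SDE. Within 250 kb of SLC29A1, 7 other genes were tested in the BxPC-3 lines. Of these 2 passed as higher, 1 as lower, and TMEM63B was SDE with a log2FC of 1.17. In the CFPAC-1 lines 5 of 8 passed as lower and 2 as higher, with MRPL14 (-1.17) and SLC35B2 (-1.08) SDE lower and CDC5L (1.39) SDE higher. After the GC and length correction 3 passed as lower, 2 as higher and none was SDE. Around SLC29A2, 10 of 13 neighbours passed in the BxPC-3 lines, 3 higher and 7 lower. In the CFPAC-1 lines 13 of 17 passed, all lower, and 7 were SDE, namely RAB1B, DPP3, YIF1A, RBM14, BRMS1, KLC2 and RIN1, with log2FC from -1.19 to -1.60. After the correction 9 of these 17 passed as lower, 1 as higher and none was SDE. SLC28A3 had no tested neighbour in that distance.

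Within 250 kb of SLC29A3 the 2 genes tested in the BxPC-3 lines, UNC5B and UNC5B-AS1, were SDE higher in BxPC-3-GR (log2FC 1.49 and 1.27). The 1 gene tested there in the CFPAC-1 lines passed as lower (-0.37) and, corrected, as higher. Around SLC28A2, 7 genes were tested in each line, 4 passing as higher and 3 as lower in BxPC-3-GR and 1 and 3 in CFPAC-1-GR. The dual oxidase gene DUOX2 and DUOXA2, which encodes its maturation factor, moved in opposite directions between the lines. They changed by 1.85 and 2.16 in BxPC-3-GR and by -1.37 and -2.03 in CFPAC-1-GR (corrected -1.06 and -1.18), while C15orf48 was SDE higher in BxPC-3-GR (2.69). SLC28A2 itself stayed at or near 0 in all 4 lines. Near SLC29A4 all 4 genes tested in the CFPAC-1 lines passed as lower (corrected, 1 higher and 1 lower), and the actin gene ACTB was SDE (-1.47, corrected -1.02). Near SLC28A1, 4 of 6 passed as higher and 2 as lower in CFPAC-1-GR (corrected, 3 and 1), and the phosphodiesterase gene PDE8A was SDE higher (1.66, corrected 0.67).

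After entry GEM is phosphorylated, and 9 kinase genes were listed for that step and tested in both lines, where 57.7% and 79.6% of all genes passed. The list also holds kinases of other nucleosides, namely the thymidine kinase TK1 and the uridine-cytidine kinases UCK1 and UCK2. Its counts are therefore not counts of GEM kinases. DCK, the kinase that adds the first phosphate, was at 6.55 ± 0.301 FPKM in BxPC-3-GR against 6.11 ± 0.249 FPKM in BxPC-3 (log2FC 0.09, limma adjusted p = 0.23). After the GC and length correction it passed as higher (0.19, limma adjusted p = 0.028). In CFPAC-1-GR it rose from 4.66 ± 0.231 to 8.27 ± 0.351 FPKM (SD, n = 3 each, log2FC 0.71), and after the GC and length correction it was lower (-0.34). In BxPC-3-GR 2 of the 9 passed as higher and 4 as lower, and NME1, a nucleoside diphosphate kinase, was SDE (-1.21). In CFPAC-1-GR 2 passed as higher and 5 as lower. There TK1 (-1.16), NME2 (-1.14) and NME4 (-1.72) were SDE lower and CMPK1, which adds the next phosphate to deoxycytidine monophosphate analogs, SDE higher (1.18), with corrected values of -0.15, -0.26, -0.93 and 0.05. After the correction 0 of the 9 passed as higher and 5 as lower in CFPAC-1-GR, and none was SDE. NME1 and NME2 are near-identical neighbours, and how reads were split between them is not given.

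Of 9 genes that inactivate GEM or its nucleotides, 7 were tested in each line. In BxPC-3-GR 3 passed, all lower, among them the deaminase CDA at 8.64 ± 0.614 FPKM against 13.3 ± 1.01 FPKM (SD, n = 3 each, log2FC -0.57), and none was SDE. CDA did not pass in CFPAC-1-GR, at 22.9 ± 4.33 FPKM against 22.2 ± 1.07 FPKM (SD, n = 3 each, log2FC 0.03, limma adjusted p = 0.86), and it was higher after the correction (0.81, limma adjusted p = 0.0012). In CFPAC-1-GR 4 passed as higher and 1 as lower. The 5′-nucleotidases NT5C2 (1.17) and NT5C3A (1.04) and the deoxynucleotide triphosphohydrolase SAMHD1 (1.11) were SDE higher and NT5C (-1.34) SDE lower, with corrected values of 0.35, -0.11, 0.22 and -0.24. After the correction 3 of the 7 passed as higher and 1 as lower in CFPAC-1-GR, and none was SDE.

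Among 8 targets and genes of nucleotide synthesis, RRM1, the large subunit of ribonucleotide reductase, stood apart. It was at 413 ± 14.9 FPKM in BxPC-3-GR against 29.1 ± 1.31 FPKM (log2FC 3.78) and at 306 ± 4.91 FPKM in CFPAC-1-GR against 8.07 ± 0.809 FPKM (SD, n = 3 each, log2FC 5.08 and, corrected, 4.35). In BxPC-3-GR 2 of the 8 passed as higher and 5 as lower, the small subunit RRM2 (-1.22) and the pyrophosphatase DCTPP1 (-1.17) being SDE. In CFPAC-1-GR 4 passed as higher and 3 as lower, with RRM2B (1.23, corrected -0.04) and the polymerase subunit POLA1 (1.56, corrected 0.65) SDE beside RRM1. After the correction 2 passed as higher and 2 as lower there, with CTPS1 going from -0.19 to -1.23 and SDE beside RRM1. RRM2B averaged 1.95 FPKM in CFPAC-1-GR and 0.251 FPKM in CFPAC-1 and so was tested only through the group where it was high.

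Efflux opposes uptake, and 6 exporters of nucleotides and analogs were listed. In BxPC-3-GR 3 of 4 tested passed as higher, with ABCG2 SDE (1.05), though at 2.09 FPKM against 0.494 FPKM it reached the minimum mean only through BxPC-3-GR. In CFPAC-1-GR 2 of 3 passed as higher, with ABCC4 SDE (1.52, corrected 0.56), which averaged 0.833 FPKM in CFPAC-1 and reached the minimum only through CFPAC-1-GR, and 1 passed as lower. After the GC and length correction all 3 passed as higher and none was SDE, with ABCC10 going from -0.22 to 0.26 (limma adjusted p = 0.011). Of 13 genes that handle physiological nucleosides, 7 were tested in the BxPC-3 lines, 1 passing as higher and 3 as lower, and the phosphorylases PNP (-1.27) and UPP1 (-1.15) were SDE. In the CFPAC-1 lines 9 were tested, 2 passing as higher and 6 as lower, and the adenosine deaminase ADA (-1.17, corrected -0.78) and the ectonucleotidase ENTPD2 (-1.07, corrected -0.10) were SDE. PNP and UPP1 were lower there as well (-0.64 and -0.91, corrected -1.20 and -1.12). After the correction 2 of the 9 passed as higher and 4 as lower, and PNP and UPP1 were the SDE genes.

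Genes with a pattern like that of a transporter were sought among 12209 others by the root mean square difference of the 4 group means of log2(FPKM + 1), each gene centred on its own mean. For SLC29A1 these were KCTD17 (0.0322), the glycolytic enzyme ENO1 (0.0567) and the noncoding FAM27C (0.0809). SLC29A2 was closest to the kinase MAP2K2 (0.0187), C12orf57 (0.0504) and SBNO2 (0.0515), and SLC29A3 to KHNYN (0.0304), the kinase IKBKE (0.0311) and SIGIRR (0.0390). ENO1, for example, averaged 1307, 675, 485 and 273 FPKM in the order CFPAC-1, CFPAC-1-GR, BxPC-3 and BxPC-3-GR, beside SLC29A1 means of 35.8, 18.4, 11.6 and 6.38 FPKM.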

How the data were processed

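RNA of 4 cell lines was sequenced with 3 libraries per line. The authors deposited FPKM values for 58302 genes in 1 table, and every library column was used. The submitters' processing notes name Trimmomatic 0.27, FastQC 0.10.1, TopHat2 2.0.8 and the builds hg19 and GRCh38, and the methods name GRCh38. The counting program, strandedness and poly(A) selection are not given in the sources used here. The records and the methods name different media for CFPAC-1.

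The 7 transporters, the 5 lists of related genes, the markers and the tests were chosen with earlier results of these data known. limma 3.58.1 (R 4.3.3) was fitted on log2(FPKM + 1) over all genes averaging at least 1 FPKM in the libraries compared, without covariates, in place of the DESeq2 test that the methods name, which needs counts. This scale understates changes of low genes. Genes passed at a Benjamini-Hochberg adjusted p below 0.05 and were SDE with an absolute log2FC above 1. GC content came from the longest GENCODE 29 transcript and length from joined exons, for 58039 genes, and the correction removed natural splines of both (5 degrees of freedom). Named were all members, SDE genes of the lists, SDE genes within 250 kb and the 3 genes most alike each member averaging at least 1 FPKM. DCK and CDA, SDE in neither line, were named outside this rule, after their values were seen.

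Implied depth was the most frequent value of 1 fragment, and 52.2% to 64.8% of low values were whole multiples within 0.02, so no count test was run. Fragment numbers of members are therefore estimates. The procedure was tested on simulated data. Alternatives were other pseudocounts, filters, scalings, fits and the omission of each library. The GC and length correction with a minimum mean of 0.1 FPKM, with and without a pseudocount of 0.1, was added after the values were seen. Python 3.11.15, scipy 1.17.1 and matplotlib 3.10.9 gave intervals and figures.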

Additional observations from a re-analysis of the deposited data

Results flagged for a closer look

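On the values as deposited, SLC29A2 and SLC29A3 responded differently in the resistant lines by the test of the difference itself. Of 12210 genes 76.6% passed that test and 38.0% were SDE. For SLC29A2 the log2FC in the CFPAC-1 lines minus that in the BxPC-3 lines was -2.02 (SE 0.133, limma adjusted p = 1.6e-07), with every BxPC-3-GR library above and every CFPAC-1-GR library below all libraries of its parent. For SLC29A3 it was -0.70 (SE 0.155, limma adjusted p = 0.0017), with no overlap in the BxPC-3 lines and overlap in the CFPAC-1 lines. After the GC and length correction the difference was -1.12 for SLC29A2 (limma adjusted p = 3.4e-05). For SLC29A3 it was -0.05 and no longer passed (limma adjusted p = 0.78).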

How the results depend on the processing

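In BxPC-3-GR the 4 tested members passed with the same sign under all 14 settings other than left-out libraries. Over these settings 14.5% to 28.9% of all genes passed as higher and 16.4% to 33.2% as lower. At the minimum of 1 FPKM SLC28A3 was tested only through BxPC-3-GR, so its passing there was tied to its being tested. Without any 1 BxPC-3-GR library SLC28A3 was not tested, so SDE members ranged from 0 to 1 over left-out libraries. In CFPAC-1-GR there were 0 SDE members with the GC and length correction, alone, with the block or with a minimum of 0.1 FPKM, 2 with median-of-ratios scaling or a pseudocount of 0.1, and 3 with upper-quartile scaling or pseudocount and minimum both 0.1. SLC29A4 is in the counts with the pseudocount, upper-quartile scaling and both, and SLC28A3 in the count with both. Each was tested only through the group where it was high, so no call is drawn from these additions. Of all genes 44.2% passed as higher and 34.7% as lower with the pseudocount, and 40.3% and 22.7% with both. The median log2FC of all genes was 0.13 as deposited and -0.13 and -0.24 under median-of-ratios and upper-quartile scaling, with 36.1% and 32.9% of genes passing as higher and 44.3% and 47.9% as lower. Relative to those medians SLC29A1, SLC29A2 and SLC29A4 stayed lower.

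SLC29A3 in CFPAC-1-GR turned to 0.48 with the correction (also with the block), 0.27 with the minimum of 0.1 and 0.37 with the pseudocount of 0.1 too. For the difference of response, SLC29A1 turned to 0.40 (also with the block), 0.22 (not passing) and 0.41 in the same order. SDE members there were 2 with upper-quartile scaling, with pseudocount and minimum both 0.1 or with the correction and minimum, and 3 with the correction and both. Members passing numbered 4 with no filter, with the minimum of 0.1 or with the correction and both. Between parents SLC29A3 turned to -0.030 with the correction (also with the block) and -0.13 with the correction and both, and SLC28A3, not tested as deposited, was -0.24 with the minimum and 0.34 with the correction and minimum. SDE members between parents were 0 with the correction (also with the block), 1 with either added setting and 4 with pseudocount and minimum both 0.1. There 5 members passed with the minimum, with both or with no filter. Of all genes 33% passed as higher and 39.3% as lower with the minimum, and 32.7% and 39% with both. With no filter these were 24.3% and 28.3%. Between parents SLC29A4 and SLC28A3 met the minimum of 0.1 only through the line where they were high. SLC29A4 was listed at 0 in BxPC-3 and SLC28A3 averaged 0.0182 FPKM in CFPAC-1, so no call is drawn from either. The counts for the difference of response at that minimum also draw on these genes. The cause of the changes was not tested.

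The labels do not say what the replicate numbers mark. Correlations of same-numbered deviations lay between -0.143 and 0.0959, which cannot show whether such libraries shared a culture or batch. With the number as a block the log2FC of SLC29A1 and SLC29A2 in CFPAC-1-GR stayed -0.93 and -1.38 (limma adjusted p = 0.00043 and 0.00022), and the block changed no call. Depth limits SLC28A1, SLC28A2 and, in the BxPC-3 lines, SLC29A4, which gave at most 6 fragments in any library.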
